A study of Mus musculus with 2 samples.

Results

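Solute carriers for ions, bicarbonate, phosphate and zinc were compared between the airway epithelium of fetal mouse lung on the embryonic days E18.5 and E14.5. The members are the genes whose name on the array belongs to the families Slc4, Slc8, Slc9, Slc12, Slc20, Slc24, Slc26, Slc30, Slc34 or Slc39, with Slc12a2 and Slc34a2 left out. These were 76 genes with 125 probes, out of 19748 named genes and 41170 probes. The rule matches names, so it also took 3 genes that are not carriers: Slc4a1ap, an adaptor, and Slc9a3r1 and Slc9a3r2, scaffolds that bind carriers at the membrane. The E18.5 and the E14.5 group each held 1 sample, the epithelium of intralobular airways cut by laser from frozen, stained sections of 1 lung. Fetuses of both ages were male, wild type and of the outbred CD-1 strain. Both samples were hybridised together on 1 two-colour array of 60-base probes, E18.5 in Cy5 (red) and E14.5 in Cy3 (green).

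Cells hold their pH with sodium/proton exchangers (Slc9) and with carriers that bring bicarbonate in or exchange it for chloride (Slc4 and Slc26). Before birth the lung epithelium secretes chloride-rich fluid into the airways, and around birth it turns to absorbing sodium and water, so that bicarbonate, chloride and sodium carriers set the volume and pH of the fluid. Slc12 cotransporters move chloride with sodium or potassium, Slc8 and Slc24 exchange sodium for calcium, and Slc20 and Slc34 take up phosphate. Zinc leaves the cytosol through Slc30 carriers (ZnT) and enters it through Slc39 carriers

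Values are normalized intensities in arbitrary units, with ratios on the log2 scale of E18.5 over E14.5. A gene was called at 2-fold or more, a log2 ratio of 1 in either direction, by size alone. With 1 sample per age there was no test, no p-value and no replicate check. Dye and age cannot be told apart, since no dye swap was made. A gene's value comes from its brightest probe (mean log2 intensity over both channels) among those well above background, and other probes are given beside it. Intensities of different probes do not compare levels between genes.

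Of the 76 members, 65 had signal well above background in both samples, 3 in the E18.5 sample alone and 2 in the E14.5 sample alone, so that 70 gave a ratio or a bound. The other 6, dim at both ages, were Slc9a10, Slc24a1, Slc30a3, Slc30a8, Slc30a10 and Slc34a1. A bound is a smallest size, and it enters the counts and ranges below at that value. At E18.5, 78.7% of all probes were well above background, against 75.2% at E14.5, and the lowest such intensities were 63.2 at E18.5 and 83.4 at E14.5. Over 218 probes with repeated spots, the median SD of the log2 ratio was 0.05, but every member probe had 1 spot. The 19 members with several probes above background had a median distance of 0.68 between their lowest and highest probe.

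All 8 epithelial markers were well above background at both ages, and 3 were past 2-fold upward at E18.5 and 1 downward, with a median log2 ratio of 0.55. Their summed intensity was 499711 at E18.5 and 302559 at E14.5. Keratins 8, 18 and 19, the cadherin Cdh1 and the factor Foxa2 were the brighter ones at E18.5, and the lung factor Nkx2-1 (−0.57), the adhesion molecule Epcam (−0.75) and the claudin Cldn4 (−1.17) at E14.5. Markers of other cells were present at both ages. Of 13 leukocyte markers, 10 were past 2-fold upward and none downward, with a summed intensity of 181735 at E18.5 and 10169 at E14.5, or 34820 at E18.5 and 8401 at E14.5 without Lyz2, which alveolar type II cells also make. Endothelial markers were higher in 4 of 10 and lower in 0, with sums of 114006 at E18.5 and 21079 at E14.5. Without Kdr these sums were 42338 at E18.5 and 16989 at E14.5. Mesenchyme and smooth muscle markers were higher in 0 of 12 and lower in 4, with sums of 476198 at E18.5 and 581950 at E14.5. The order of these sums rested on the smooth muscle actin Acta2, since without it they were 409202 at E18.5 and 389653 at E14.5. Nerve and mesothelium markers were higher in 2 of 7 measured, with sums of 47966 at E18.5 and 8293 at E14.5. The mesothelial marker Msln carried most of that gap, and the other 6 summed to 4374 at E18.5 and 3318 at E14.5. Within the epithelium, all 5 ciliated, 4 secretory and 6 alveolar type II markers were past 2-fold upward at E18.5. In dissected tissue, more cells of a type and more RNA per cell cannot be told apart, and the part of these cells in the ratios below was not tested.

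As a set, the carriers showed no shift between the ages beyond that of all genes. At E18.5, 10 of the 70 measured members (14.3%) were higher by 2-fold or more, 2 (2.86%) were lower by as much, and 58 did not reach the limit. Over all 17244 genes measured, 17.3% were past the limit upward and 10.1% downward, 27.4% in all, so the share of higher members was near the background and that of lower members below it. The median log2 ratio was 0.06 for the members and 0.06 for all genes. Among 260 other Slc genes measured, Slc12a2 and Slc34a2 included, 70 (26.9%) passed 2-fold upward and 15 (5.77%) downward, with a median of 0.36. The difference between carrier groups was not tested. Of the members, 45 lay within 1.5-fold. Members that were neither past 2-fold, nor the brightest of their family, nor split between probes are named below for their known role or their nearness to a limit, after their values were seen. Closest to the 2-fold limit were Slc24a4 (1.04) and Slc26a6 (−1.06) past it, and Slc4a10 (−0.97) and Slc12a5 (−0.96) short of it.

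**Figure D1:**
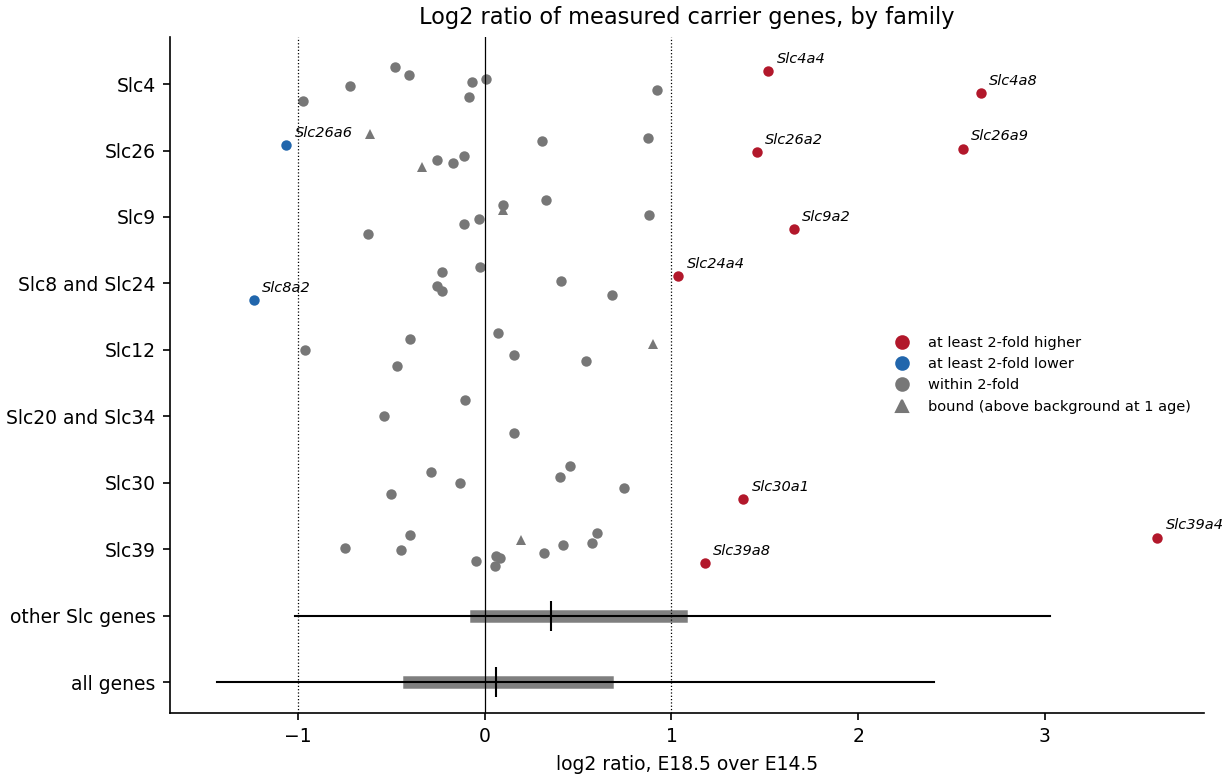
Log2 ratio of E18.5 over E14.5 for 67 measured carrier genes, 1 point per gene, in rows by family, with dotted lines at 2-fold. The lower rows give the median (tick), the middle 50% of genes (thick bar) and the 5th to 95th percentiles (line) for other Slc genes and for all genes. Most carriers lie between the dotted lines, and Slc39a4 at 3.60 is farthest from 0.

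The 10 higher members came from 6 of the families, and the 2 lower members were Slc26a6 and Slc8a2. Slc39a4 had the widest distance between ages, followed by Slc4a8 and Slc26a9.

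**Figure D2:**
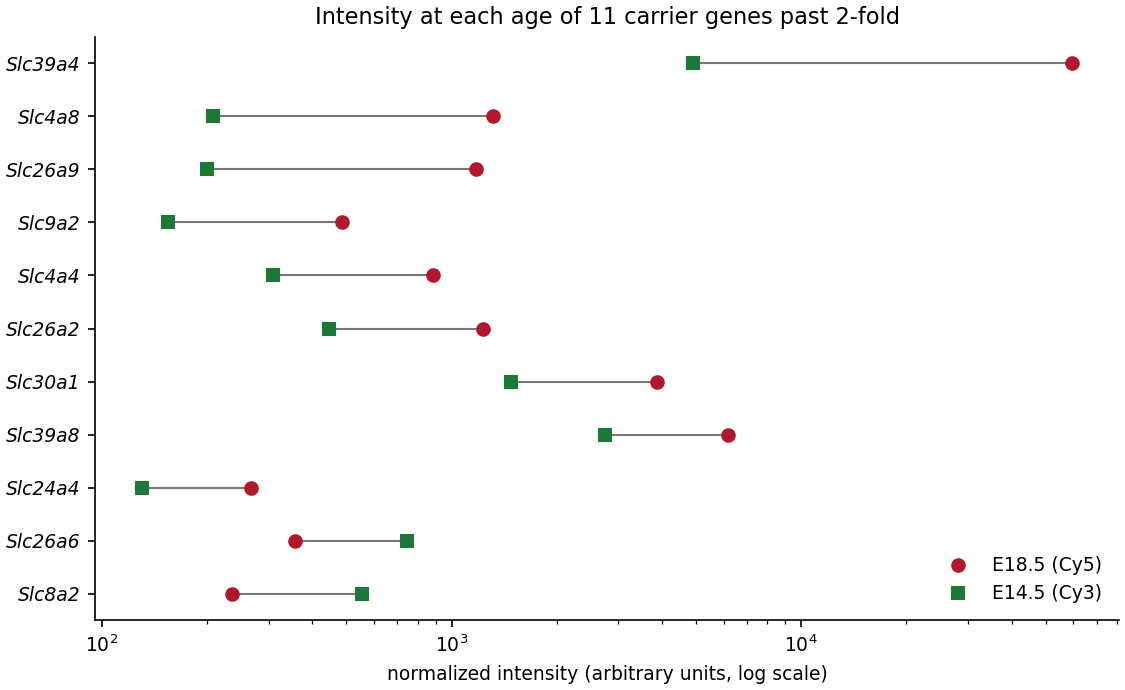
Normalized intensity (log scale) of 11 carrier genes past 2-fold, with a red circle for E18.5, a green square for E14.5 and 1 sample per age. Slc39a4 reached 59564 at E18.5 against 4906 at E14.5, while Slc24a4 stayed near the dim end at both ages.

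In the Slc4 family, the 2 largest ratios by the probes used were those of Slc4a8 and Slc4a4, both sodium-coupled bicarbonate carriers. The other 2 such carriers, Slc4a7 (−0.41) and Slc4a10 (−0.97), were below 0 by the probes used. Of the 10 Slc4 members, all measured, 2 passed 2-fold upward at E18.5, beside 17.3% of all genes, and none downward, beside 10.1%. The other 8 stayed between −0.97 and 0.93. Slc4a8, which takes up sodium and bicarbonate in exchange for chloride, had an intensity of 1313 at E18.5 and 208 at E14.5. That is a log2 ratio of 2.66, or 6.31-fold. Its other probes gave 876 at E18.5 against 214 at E14.5 (2.04) and 436 at E18.5 against 127 at E14.5 (1.78). The 3 probes thus pointed the same way, and the median over them, 2.04, puts the difference lower than the probe used did. Slc4a4, the electrogenic sodium bicarbonate cotransporter, had 884 at E18.5 and 309 at E14.5, a log2 ratio of 1.52 (2.86-fold). One more Slc4a4 probe was past 2-fold, with 510.5 at E18.5 against 199 at E14.5 (1.36), and the third was not, with 199 at E18.5 against 148 at E14.5 (0.43).

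Slc4a7, the electroneutral sodium bicarbonate cotransporter, gave different pictures by probe. The probe used had 4280 at E18.5 and 5673 at E14.5, a log2 ratio of −0.41. A probe across an exon junction was close to it, with 2594 at E18.5 and 2846 at E14.5 (−0.13). The third probe had 4797 at E18.5 and 177 at E14.5, a log2 ratio of 4.76. On the mm8 build all 3 lie on the plus strand of chromosome 14, and the third is the most upstream, 42393 bases before the junction probe and 59959 before the probe used. The junction probe and the upstream probe are shown because the reading for Slc4a7 turns on them, together with the Slc4a8 probe that gave the larger of the Slc4 ratios. All lie on the plus strand and are written 5′ to 3′ as the array's design gives them, with no base set apart by capitals.
Slc4a7 upstream probe, chr14:13533094-13533153: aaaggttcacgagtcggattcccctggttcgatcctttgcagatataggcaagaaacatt
Slc4a7 junction probe, chr14:13575487-13579615: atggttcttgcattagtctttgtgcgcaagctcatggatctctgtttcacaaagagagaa
Slc4a8 probe used, chr15:100641198-100642508: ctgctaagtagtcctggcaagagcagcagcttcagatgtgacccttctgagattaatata
The Slc4a7 junction probe spans 4129 bases of genome and the Slc4a8 probe 1311, so each joins at least 2 exons, while the upstream probe lies in 1 stretch of 60 bases. Which transcripts carry the upstream probe was not analysed here.

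Chloride/bicarbonate exchangers of the Slc4 family lay within 2-fold. Slc4a2, the widespread exchanger AE2, had 9452 at E18.5 and 13194 at E14.5 (−0.48). Slc4a3 had 2225 at E18.5 and 1172 at E14.5 (0.93) by the probe used, and 367 at E18.5 and 463 at E14.5 (−0.33) by its other probe, so its direction depended on the probe. Slc4a1, the band 3 protein of red cells, had 734 at E18.5 and 779 at E14.5 (−0.09). In the same samples erythroid markers passed 2-fold upward in 1 of 9 and downward in 4, with summed intensities of 9651 at E18.5 and 40933 at E14.5. The embryonic globin Hbb-y carried that gap, and without it the sums were 8034 at E18.5 and 8022 at E14.5. The embryonic globins Hba-x (−3.65) and Hbb-bh1 (−3.11) were lower too, whereas Alas2, a heme synthesis enzyme of red cells, was higher (1.78). Slc4a10, a sodium bicarbonate carrier best known from neurons, had 100.1 at E18.5 and 197 at E14.5 (−0.97), low at E18.5, and the scanner software's ratio for it was −2.10, past 2-fold.

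Slc26 anion carriers had members past 2-fold in both directions, in shares near those of all genes. Of 10 members, all measured, 2 passed 2-fold upward at E18.5, beside 17.3% of all genes, and 1 downward, beside 10.1%, and 7 stayed between −0.61 and 0.88. Slc26a9, a chloride transporter of airway and stomach epithelium, had 1175 at E18.5 and 199 at E14.5, a log2 ratio of 2.56 (5.90-fold) by its 1 probe at chr1:133597215-133597274 on mm8. Slc26a2, a sulfate carrier needed for sulfated proteoglycans, had 1229 at E18.5 and 447 at E14.5 (1.46, 2.75-fold). Slc26a6, which exchanges chloride for bicarbonate and oxalate, was lower, with 356 at E18.5 and 744 at E14.5 (−1.06, 2.09-fold). Its call was lost with median centring of the array (−0.998, just short of the limit). The second Slc26a6 probe gave 313 at E18.5 and 606 at E14.5 (−0.95). The 2 probes are printed because they are nearly the same oligo: capitals mark the 40 bases that both hold, so their likeness is no independent support.
Slc26a6 probe used, chr9:108769628-108769687: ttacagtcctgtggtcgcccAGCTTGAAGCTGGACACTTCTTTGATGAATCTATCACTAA
Slc26a6 second probe, chr9:108769648-108769707: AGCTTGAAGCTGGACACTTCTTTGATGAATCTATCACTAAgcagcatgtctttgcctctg
Slc26a11, the member with the highest signal in its family, had 4591 at E18.5 and 2503 at E14.5 (0.88). Slc26a4 (pendrin), with 96.6 at E18.5 and 104 at E14.5, was close to the lowest intensities above background at both ages, and Slc26a3 had 181 at E18.5 and 146 at E14.5 (0.31). Slc26a1 and Slc26a5 were well above background at E14.5 only. Their bounds, at least 1.53-fold and at least 1.26-fold lower at E18.5, did not reach 2-fold. The scanner software's signals put both past it, at −1.49 and −1.01.

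Among sodium/proton exchangers, the epithelial surface exchanger Slc9a2 was higher at E18.5. Of the 11 members of the Slc9 family, 10 were measured. At E18.5, 2 of these passed 2-fold upward, beside 17.3% of all genes, none downward, beside 10.1%, and 8 stayed between −0.63 and 0.88. Slc9a2 (NHE2) had 486 at E18.5 and 155 at E14.5, a log2 ratio of 1.65 (3.15-fold). Its second probe was dim, with 73.4 at E18.5 and 76.6 at E14.5, so the ratio rests on 1 probe. The Golgi exchanger Slc9a8 had 2939 at E18.5 and 4536 at E14.5 (−0.63, and 0.15 by another probe above background at both ages). Slc9a3 (NHE3), the main absorptive exchanger of gut and kidney, was above background at E18.5 only, with 90.1 at E18.5 and 84.1 at E14.5, a bound of 0.10 on the log2 scale. Of the scaffolds, Slc9a3r1 had 4304 at E18.5 and 4397 at E14.5 (−0.03) and Slc9a3r2 had 3066 at E18.5 and 1665 at E14.5 (0.88).

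Sodium/calcium exchangers showed no common direction. Of 9 members, 8 were measured. At E18.5, 1 passed 2-fold upward, beside 17.3% of all genes, 1 downward, beside 10.1%, and 6 stayed between −0.26 and 0.68. Slc24a4, a potassium-dependent exchanger known from olfactory neurons and tooth enamel, had 267 at E18.5 and 130.1 at E14.5 (1.04, 2.05-fold), and its second probe was dim at both ages. Slc8a2 (NCX2), best known from brain, had 235 at E18.5 and 554 at E14.5 (−1.24, 2.36-fold lower). Slc8a1 (NCX1), the exchanger of heart and many other tissues, had 5 probes above background whose ratios ran from −0.32 to 0.68. The probe used had 549.9 at E18.5 and 343 at E14.5. Slc24a3, with the highest signal in this family, had 8089 at E18.5 and 9654 at E14.5 (−0.26), and Slc24a6, a mitochondrial exchanger now named Slc8b1, had 485 at E18.5 and 366 at E14.5 (0.41).

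Among cation-chloride and phosphate members, no ratio or bound reached 2-fold in the main processing. The values of all 8 measured Slc12 members were between −0.96 and 0.90. The 0.90 is the bound of Slc12a1, so that gene may lie past 2-fold. Potassium-chloride cotransporters, which let chloride leave the cell, went both ways: Slc12a7 (KCC4) had 7280 at E18.5 and 4997 at E14.5 (0.54), and Slc12a4 (KCC1) had 4894 at E18.5 and 6769 at E14.5 (−0.47). Slc12a5 (KCC2), best known from neurons, had 953 at E18.5 and 1855 at E14.5 (−0.96), and the scanner software put it past 2-fold, at −1.26. Slc12a1 (NKCC2), the kidney cotransporter, was above background at E18.5 only, with an intensity of 158 and a bound of at least 1.87-fold higher, a log2 value of 0.90 that reached 2.02 in the scanner software's signals, past 2-fold. Slc12a2 (NKCC1), the chloride loader of secretory epithelia that the rule sets apart, had 32557 at E18.5 and 14974 at E14.5 (1.12).

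Phosphate carriers were measured in 3 of 4 cases, with ratios between −0.54 and 0.16. Slc20a1 (PiT-1), which serves most cells, had 8863 at E18.5 and 9553 at E14.5 (−0.11), and its second probe gave −0.04. Slc20a2 (PiT-2) had 1313 at E18.5 and 1909.5 at E14.5 (−0.54), and −0.04 by its second probe. Slc34a3, a kidney carrier, was dim, though above background, with 110.2 at E18.5 and 98.8 at E14.5. Slc34a2, the carrier of alveolar type II cells that the rule sets apart, stood far from these, with 6511 at E18.5 and 125 at E14.5 (5.70), and 2.38 by its second probe. The 6 alveolar type II markers had summed intensities of 367940 at E18.5 and 42257 at E14.5.

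Zinc carriers included the widest difference among the members. Of the 24 listed, 21 were measured, with 3 past 2-fold upward at E18.5, none downward and 18 short of it, a share of 14.3% higher beside 17.3% of all genes. Slc39a4 (ZIP4), the zinc importer of the intestinal brush border whose loss causes acrodermatitis enteropathica in people, had 59564 at E18.5 and 4906 at E14.5. The log2 ratio was 3.60, or 12.1-fold, by its 1 probe at chr15:76439691-76439750 on mm8. It was 3.51 by the scanner software, 3.61 with an offset of 16 and 3.77 with median centring. The other ways of processing could only repeat 3.60 or the scanner software's value. Slc39a8 (ZIP8), which carries zinc and manganese, had 6194 at E18.5 and 2738 at E14.5 (1.18, 2.26-fold). Its other probes lay at 0.12 and 0.23, so that the median over probes, 0.23, ended the call. The remaining 12 of 14 importers lay between −0.75 and 0.60. Among them Slc39a7 (ZIP7), which releases zinc from the endoplasmic reticulum, had 39891 at E18.5 and 29790 at E14.5 (0.42), and Slc39a14 (ZIP14), which also carries iron and manganese, had 482 at E18.5 and 810.2 at E14.5 (−0.75). The scanner software's ratio put Slc39a14 past 2-fold downward, at −1.11, and the authors' deposited table only repeated that value. The second Slc39a14 probe had 138 at E18.5 and 159 at E14.5 (−0.20). By the scanner software that probe gave −0.56, short of 2-fold.

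Among the exporters, Slc30a1 (ZnT1), which moves zinc out across the plasma membrane, was the member past 2-fold. It had 3869 at E18.5 and 1482 at E14.5 (1.38, 2.61-fold), and a second probe gave 3537 at E18.5 and 1512 at E14.5 (1.23), so both probes were past 2-fold. The other 6 measured exporters lay between −0.50 and 0.74. Slc30a4, a vesicular exporter, had 5778 at E18.5 and 3451 at E14.5 (0.74). Slc30a9, whose 3 probes fell on both sides of 0, ran from −0.74 to 0.61, with 6080 at E18.5 and 6653 at E14.5 by the probe used (−0.13).

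Of the 4 metallothioneins, which bind zinc in the cytosol, Mt1 and Mt2 passed 2-fold upward in the same samples, and Mt3 (−0.43) and Mt4 (0.75) did not pass. Mt2 had 199013 at E18.5 and 7127 at E14.5 (27.9-fold), and Mt1 had 107554 at E18.5 and 8452 at E14.5 (3.67), and 60-base probes may not tell such close copies apart. The zinc-sensing factor Mtf1 had 4581 at E18.5 and 2600 at E14.5 (0.82), with other probes down to −0.75. MTF1 is known to switch on Slc30a1 and metallothioneins through metal response elements. The stretch before the Slc30a1 start is therefore shown, from RefSeq on GRCm38.p6, plus strand, 250 bases long. Capitals mark a match to the element's core, searched on both strands as TGCACNC and TGCGCNC.
Slc30a1 promoter, chr1:191906531-191906780: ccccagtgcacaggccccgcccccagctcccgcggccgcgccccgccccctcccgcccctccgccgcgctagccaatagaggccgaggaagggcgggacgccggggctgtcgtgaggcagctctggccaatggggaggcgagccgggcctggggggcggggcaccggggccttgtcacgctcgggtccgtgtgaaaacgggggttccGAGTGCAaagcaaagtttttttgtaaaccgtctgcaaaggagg
The match lies on the minus strand and begins 43 bases before the start. Of 20 zinc carrier genes with such a window, 10 held at least 1 match, beside 23.8% of 27025 genes. Slc39a4 had no window and is not among them, and the genes with a match include Slc30a3 and Slc30a10, dim at both ages. A match of letters is not a binding site, and the difference between these shares was not tested.

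Partner genes of the carriers were measured from a list of 50. Of the 48 measured, 10 (20.8%) were past 2-fold upward at E18.5 and 3 (6.25%) downward, with a median of 0.29, beside 17.3%, 10.1% and 0.06 for all genes. Carbonic anhydrases, which make bicarbonate and protons from carbon dioxide, went both ways, with 3 of 15 higher and 2 lower. Car8, a member without catalytic activity, had 12779 at E18.5 and 3194 at E14.5 (4.001-fold), and the membrane-bound Car4 had 338 at E18.5 and 104 at E14.5 (1.70). The mitochondrial Car5b had 606 at E18.5 and 247 at E14.5 (1.30, other probe 0.38). Car13, a cytosolic member, was lower, with 890.2 at E18.5 and 2966 at E14.5 (−1.74). Car3 was lower too, with 82.7 at E18.5 and 282 at E14.5 (−1.77), but near 0 by its other probe.

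Kinases that set Slc12 transport also went both ways, with 2 of 8 higher and 1 lower. Wnk4 had 1222 at E18.5 and 390 at E14.5 (1.65), and Wnk2 had 1326 at E18.5 and 2695 at E14.5 (−1.02). Cab39, a scaffold of the kinases downstream of Wnk, had 9268 at E18.5 and 4042 at E14.5 (1.20), with another probe at −0.13. Ezr (ezrin), which ties membrane carriers to actin at the apical surface, had 93986 at E18.5 and 27293 at E14.5 (1.78). The secreted phosphate regulator Stc2 had 1753 at E18.5 and 493 at E14.5 (1.83). Of 8 calcium pumps measured, Atp2c2 alone was past 2-fold, a pump of the secretory pathway with 12287 at E18.5 and 2812 at E14.5 (2.13).

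Agreement between probes differed from gene to gene. Among called members with more than 1 probe above background, Slc4a8 and Slc30a1 had all of them past 2-fold, whereas Slc4a4, Slc39a8 and Slc26a6 had at least 1 short of it, and the probes of Slc4a4 and Slc39a8 lay more than 2-fold apart. Of the members within 2-fold, 4 had probes that disagreed by 2-fold or more: Slc4a3, Slc4a7, Slc8a1 and Slc30a9. For these genes the call holds for the probe used and not for the gene as a whole.

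**Figure D3:**
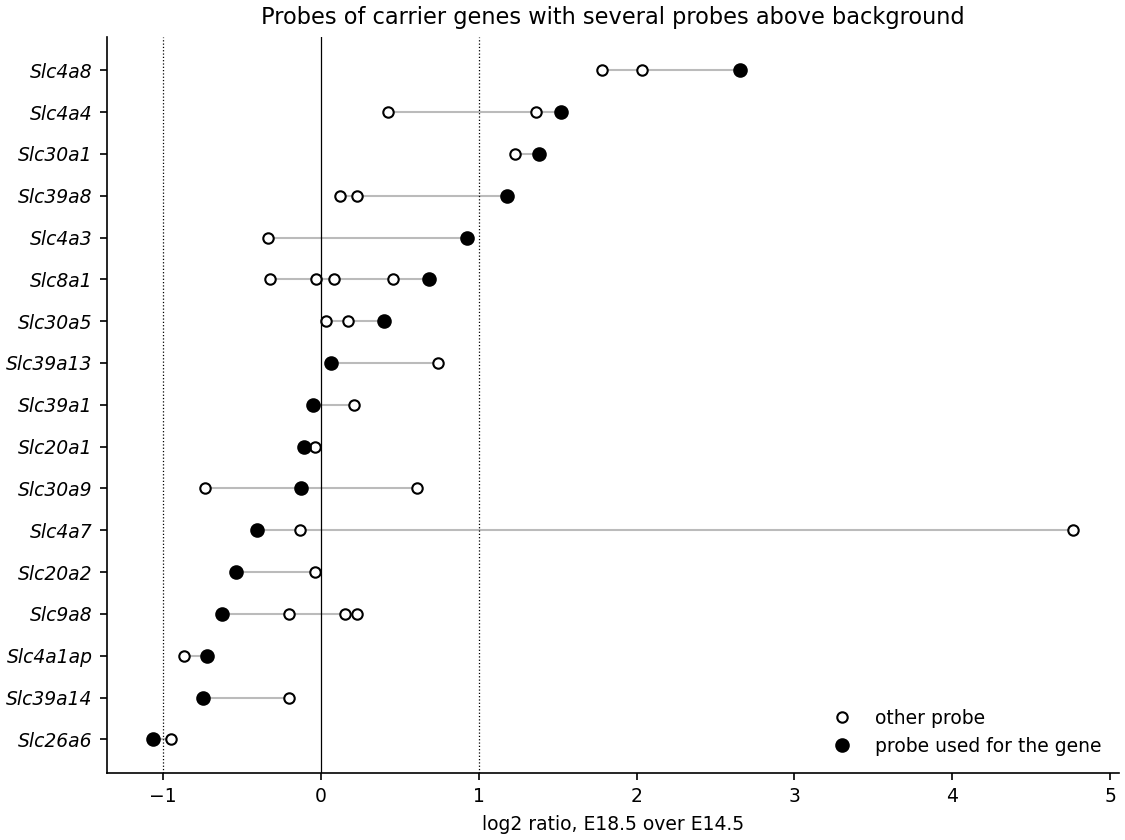
Log2 ratio of E18.5 over E14.5 of each probe above background at 1 age or both, for 17 carrier genes with several such probes. Filled circles are the probes used for the genes, open circles the other probes, and dotted lines mark 2-fold. The upstream Slc4a7 probe, at 4.76, stands apart from the gene's other probes, at −0.41 and −0.13.

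**Figure D4:**
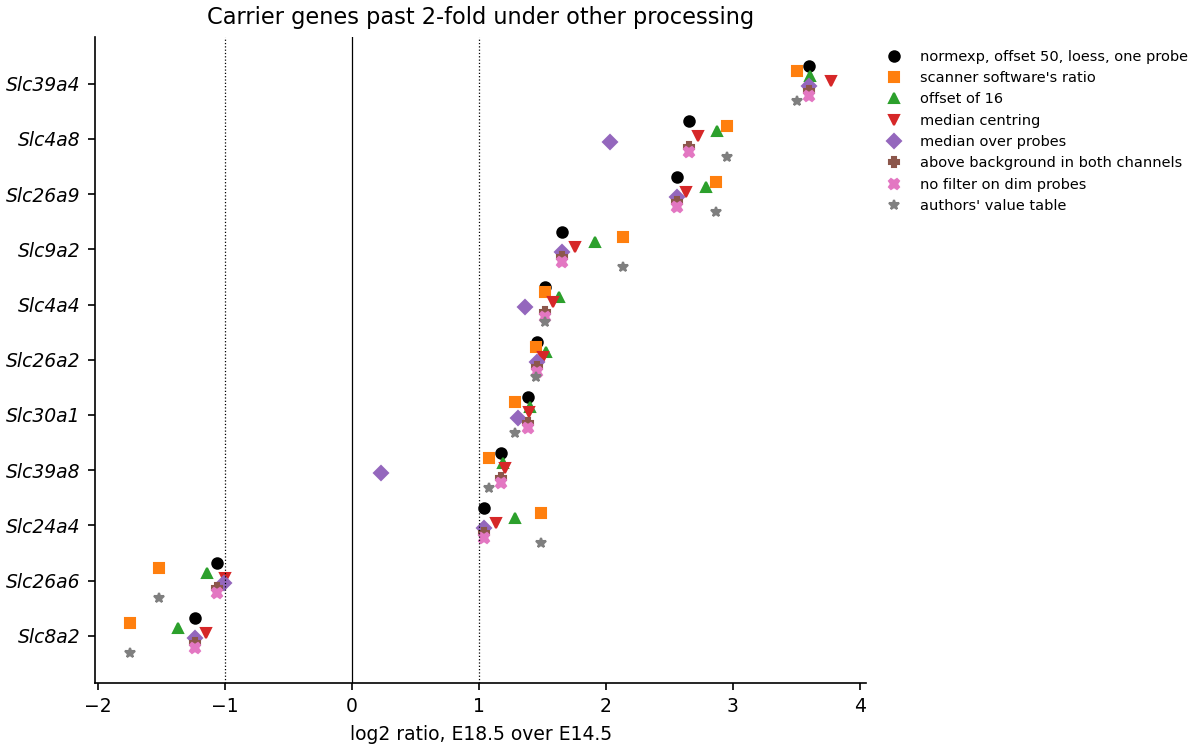
Log2 ratio of E18.5 over E14.5 of 11 carrier genes past 2-fold, under the processing used in the text (black circle) and 7 alternatives (other symbols, named in the legend). Slc39a8 with the median over probes, at 0.23, is the point that moves farthest from the processing used.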

How the data were processed

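Epithelium of 1 lung at E18.5 and 1 at E14.5 was measured on 1 two-colour Agilent array, and both deposited scanner outputs held the same values in 115 of 115 columns, so they were read once. Per the file headers, the authors' images were read with Feature Extraction 9.5.3.1, and the probes' coordinates are on mm8. The deposited spot and background intensity of both dyes gave the values in the text. The deposited log10 ratio of the scanner software, and the deposited value table, whose intensity values equal the software's processed signal times 0.339 with a floor of 15, served as alternatives.

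Intensities were background-corrected with limma 3.58.1 (normexp, offset 50) and normalized by loess within the array. Control spots (1639) and 160 outlier spots were left out. A gene above background at 1 age only was given a bound against the lowest intensity above background in the other channel, or its own intensity there where that was higher. The limit of 2-fold is a size. The members, the partner and marker lists and the rule for naming genes (all members past 2-fold, those with disagreeing probes, the brightest of each family, and partners past 2-fold) were chosen with earlier results of these data known. Gene names are those of the array, and RefSeq tables (GRCm38.p6) named 33099 probes. The number of arrays, 1, limits the precision. Some genes are counted but not reported here by name. Sums of marker lists without their brightest marker were added after seeing the data. Only the normalization was tested on simulated data, with known ratios given to brighter probes. The choice of probes, background calls, bounds and gene calls were not part of that test. The alternatives were the background offset, centring, the median over probes, filters on dim probes, both deposited processed versions and other limits of size.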

Additional observations from a re-analysis of the deposited data

How the results depend on the processing

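For the 16 members past 2-fold or with disagreeing probes, 110 of 112 values under the alternatives kept their direction and their side of the 2-fold limit. Many of these values could not differ, so the tally does not measure robustness. Both filters on dim probes returned the value in the text for all 16, and the authors' table repeated the scanner software's ratio. For members with 1 probe above background, the median over probes was also the value in the text. Slc26a6 lost its call with median centring (−0.998) and Slc39a8 with the median over probes (0.23). Among the other members, 6 passed 2-fold in 12 further cases, namely Slc12a1 upward and Slc4a10, Slc12a5, Slc26a1, Slc26a5 and Slc39a14 downward. The count of higher members was 17 at a limit of 1.5-fold and 4 at 3-fold, and that of lower members 8 and 0. Over all genes, 26.87% were higher and 19.2% lower at 1.5-fold, and 10.04% higher and 3.95% lower at 3-fold. Lower members numbered 7 by the scanner software's ratio, 5 in the authors' value table and 1 with median centring, against 2 in the text. The lower share of all genes moved as well, to 15.35%, 14.87% and 8.81% in that order, against 10.1% in the text. Their higher share was 17.96% by the scanner software and 17.42% in the authors' table. The split of higher against lower was 11 to 7 by the scanner software and 11 to 5 in the authors' table, against 10 to 2, and the calls added there include dim genes such as Slc4a10 (−2.10). The members' median turned to −0.14 by the scanner software and −0.0684 in the authors' table, where the median of all genes was −0.05 and −0.02. The Slc12 median turned to −0.0824 in both. The Slc26 median was −0.47 by the scanner software and turned to 0.10 with genes above background in both channels, and the Slc30 median was 0.0202 without a filter on dim probes. Except for the filters, which change the genes counted, the cause was not tested. No paired analysis was possible because each age had 1 sample, and for the same reason no replicate could be left out. Members near the lowest intensities above background have ratios pulled toward 0 by the offset.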

Other observations

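Probes under other names on the array match carriers of these families in the RefSeq tables, by accession or by an older gene name. They stayed out of all counts, and which transcripts they report was not analysed. For Slc30a7, an exporter into the secretory pathway, 3 such probes named 2610034N15Rik disagreed. One had an intensity of 3458 at E18.5 against 3889 at E14.5 (log2 ratio −0.17), the next 1943 at E18.5 against 416 at E14.5 (2.22), and the last 2881 at E18.5 against 1488 at E14.5 (0.95). The probe named Slc30a7 had 1867 at E18.5 and 1360 at E14.5 (0.46). For Slc9a7, an exchanger of the Golgi, a probe named 6330509M05Rik had 669 at E18.5 and 582 at E14.5 (0.20).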
